A study of Homo sapiens with 16 samples.

Results

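The aminoacyl-tRNA synthetases were taken from the RNA sequencing table by symbol, as every gene whose name is a single letter followed by ARS with an optional 1, 2 or 3, together with FARSA, FARSB, FARS2 and EPRS1. This rule found 38 of the 42351 genes in the table. Of these, 21 encode cytosolic enzymes or their subunits and 17, with names ending in 2, encode mitochondrial enzymes. RNA was measured in 16 libraries from lung cancer cell lines. A549 cells, labelled as carrying wt MET, and NCI-H596 cells, in which the receptor lacks exon 14 (MET∆14), were deprived of serum and either left without hepatocyte growth factor (HGF, the ligand of MET) at 0 h or given HGF for 3 h, 6 h or 12 h, with 2 biological replicates per condition. Each MET status was thus represented by 1 line, so MET status and cell line cannot be told apart, and every HGF time was compared with a single untreated time, so HGF and time after 0 h cannot be told apart.

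Aminoacyl-tRNA synthetases attach each amino acid to its tRNA, the first step of protein synthesis. Human cells use separate enzymes for the cytosol and the mitochondrion for most amino acids, all encoded in the nucleus, while the KARS1 and GARS1 genes make both forms, and mitochondrial glutaminyl-tRNA is made from a glutamate-charged tRNA. The enzymes fall into 2 structural classes, and several cytosolic ones sit in the multi-tRNA synthetase complex, held by the scaffold proteins AIMP1, AIMP2 and EEF1E1. Many cytosolic synthetase genes are known targets of the transcription factor ATF4, which responds to amino acid shortage.

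Total counts per library ranged from 13226488 to 21970052 in wt MET cells and from 10158590 to 23909304 in MET∆14 cells. All 38 genes passed the filter on low counts, which kept 15067 genes. Libraries of wt MET cells held no reads of CDKN2A, which A549 cells are known to have lost, whereas MET∆14 cells held 143 ± 2.25 CPM (mean ± SD, n = 2) at 0 h. CPM are counts per 1000000 of a library size that was multiplied by its TMM scaling factor (0.923 to 1.10). They are therefore not plain shares of the reads. Summed squamous markers reached 0.538 to 2.83 CPM in wt MET and 2285 to 3264 CPM in MET∆14 libraries, and summed epithelial markers 1709 to 2465 and 1085 to 1762 CPM. The 4 lung adenocarcinoma markers summed to at most 2.26 CPM in any library. The 6 fibroblast markers summed to 187 to 346 CPM in MET∆14 cells, against 11.4 to 19.4 CPM in wt MET cells, and the 5 immune markers to 6.95 to 22.3 against 0.200 to 0.666 CPM. The part of these marker differences in the results was not tested. The 2 MET∆14 replicates at 12 h stood further apart than those of the other conditions. Because whole cultures were sequenced, a lower share of RNA in the cells and a lower share of the cells holding that RNA cannot be told apart.

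Before HGF, the cytosolic class stood at a higher summed level in wt MET than in MET∆14 cells. The 21 cytosolic genes summed to 5848 ± 69.8 CPM in wt MET and 3441 ± 17.6 CPM in MET∆14 cells, whereas the 17 mitochondrial genes summed to 597 ± 11.04 and 631 ± 14.0 CPM. The cytosolic sum was therefore 9.80 ± 0.0645 times the mitochondrial sum in wt MET and 5.46 ± 0.149 times in MET∆14 cells. All of these values are means ± SD of 2 replicates, as are the CPM means below. A gene was called where the quasi-likelihood test of edgeR gave it a p under 0.05 after Benjamini-Hochberg adjustment over all genes tested. At 0 h, 31 of the 38 genes were called between the lines, 11 higher and 20 lower in MET∆14 cells, beside 80.2% of all genes tested (40.6% higher and 39.6% lower). The share of called genes was thus close to that of all genes. Among cytosolic genes 4 were higher and 15 lower, with a median log2 change of -0.61 for MET∆14 against wt MET. Among mitochondrial genes 7 were higher and 5 lower, with a median of -0.03, beside 0.02 over all genes.

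NARS1, the asparaginyl enzyme, showed the lowest log2 change of all members between the lines at 0 h. It stood at 348 and 329 CPM in the wt MET replicates and at 73.1 and 75.9 CPM in the MET∆14 replicates, a log2 change of -2.18 ± 0.07 (SE, adjusted p = 7.06e-13). FARSA and FARSB encode the alpha and beta subunits of the cytosolic phenylalanyl enzyme, and they differed between the lines in opposite directions. FARSA was at 34.1 ± 2.68 CPM in wt MET and 66.2 ± 2.497 CPM in MET∆14 cells, a log2 change of 0.96 ± 0.13 (SE, adjusted p = 8.2e-06). FARSB was at 136 ± 7.03 and 31.1 ± 0.162 CPM, a log2 change of -2.13 ± 0.11 (SE, adjusted p = 4.82e-11). QARS1, the cytosolic glutaminyl enzyme, was higher in MET∆14 cells by 1.05 ± 0.07 (SE, adjusted p = 2.74e-09) on the log2 scale. On the mitochondrial side FARS2, the phenylalanyl enzyme, was higher in MET∆14 cells by 1.31 ± 0.19 (SE, adjusted p = 1.08e-05), and YARS2, the tyrosyl enzyme, had a log2 change of -1.64 ± 0.11 (SE, adjusted p = 2.09e-09). The cytosolic HARS1 and TARS1 and the mitochondrial LARS2, TARS2, WARS2, SARS2 and PARS2 were not called at 0 h.

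**Figure D1:**
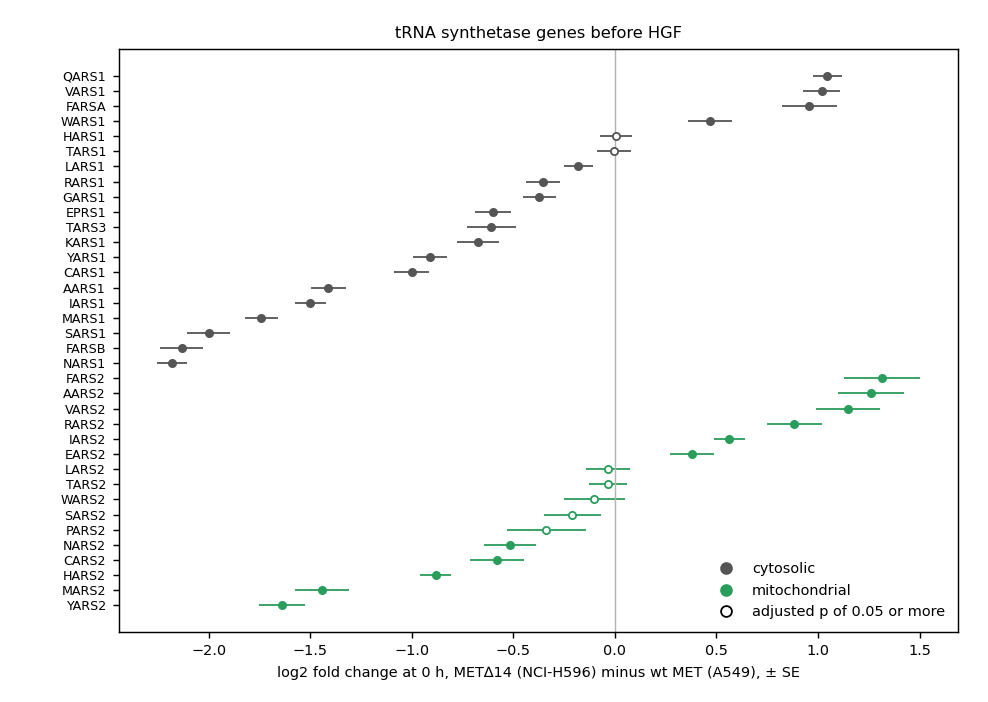
Log2 change at 0 h of 36 of the synthetase genes, MET∆14 minus wt MET cells, with its SE (x axis) and the genes grouped by class (y axis); filled points passed the test. Of the 20 cytosolic genes drawn 14 lie to the left of 0 with filled points, from NARS1 at -2.18 upwards, whereas the mitochondrial genes spread over both sides.

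Compared per length, as CPM per kilobase of the canonical transcript, the levels spanned a wide range within each line at 0 h. In wt MET cells the seryl enzyme SARS1 (231 ± 5.26 CPM per kilobase) was highest, followed by AARS1 (211 ± 3.76) and TARS1 (196 ± 14.2). At these lengths the replicates of these 3 genes did not overlap, whereas the next ones in the order, GARS1 (174 ± 7.88) and MARS1 (171 ± 2.24), did not differ beyond their spread. The order in MET∆14 cells began with TARS1 (195 ± 2.44), GARS1 (135 ± 1.42) and WARS1 (89.3 ± 6.48), and IARS2, the mitochondrial isoleucyl enzyme, ranked 6 at 65.4 ± 2.12 CPM per kilobase. In both lines the mitochondrial prolyl enzyme PARS2 was lowest at these lengths, at 1.85 ± 0.245 in wt MET and 1.46 ± 0.11 in MET∆14 cells. TARS3, a second cytosolic threonyl enzyme, was near the bottom of both orders, at 3.58 ± 0.291 and 2.35 ± 0.22 CPM per kilobase. The order depends on the length used. Per kilobase of the longest transcript AARS1 was at 121 ± 2.15 and GARS1 at 50.4 ± 2.28 in wt MET cells, where TARS1, MARS1 and NARS1 then followed SARS1. In MET∆14 cells GARS1 was at 39.0 ± 0.41 by that length and IARS2 ranked 3.

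The promoter windows of the members were read for elements of 3 kinds of regulator, because several members described below moved with HGF. RefSeq windows on GRCh38.p14, from 250 bases before to 50 bases after each annotated start, were at hand for 30 of the 38 genes, and the other 8, among them AARS2, LARS1, TARS3 and VARS1, were not matched. The amino acid response element TGATGNAA, bound by ATF4 with its partners, was found on either strand in windows of 7 of 16 cytosolic genes (43.8%) and 1 of 14 mitochondrial genes (7.14%), against 4.46% of all 27305 genes with such windows. The 30 bases around each match are shown because 7 of these 8 genes are cytosolic. They run along the strand of the gene, and capitals mark the element, which appears as its reverse complement where it lies on the opposite strand.
AARS1, chr16:70289675-70289704, minus strand: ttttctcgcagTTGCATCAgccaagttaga
CARS1, chr11:3057407-3057436, minus strand: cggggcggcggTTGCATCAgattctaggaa
GARS1, chr7:30594834-30594863, plus strand: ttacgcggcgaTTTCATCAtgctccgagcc
IARS1, chr9:92293692-92293721, minus strand: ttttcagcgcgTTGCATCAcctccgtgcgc
MARS1, chr12:57488053-57488082, plus strand: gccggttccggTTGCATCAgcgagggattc
NARS1, chr18:57621804-57621833, minus strand: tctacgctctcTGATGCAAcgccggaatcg
TARS1, chr5:33440956-33440985, plus strand: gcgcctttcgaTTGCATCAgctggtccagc
YARS2, chr12:32756076-32756105, minus strand: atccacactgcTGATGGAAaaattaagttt
The E-box CACGTG, bound by MYC with MAX among other factors, was found in IARS1, CARS2, EARS2 and MARS2, in 6.25% of matched cytosolic and 21.4% of matched mitochondrial genes against 8.77% of all genes. It is shown for MARS2, the member with the largest response to HGF, where it lies close to the annotated start.
MARS2, chr2:197705346-197705375, plus strand: atgcgcctctcaCACGTGctgtcagaacgc
The interferon-stimulated response element was found in EARS2 and in WARS1, whose product is known to be induced by interferon gamma. These make 6.25% of matched cytosolic and 7.14% of matched mitochondrial genes, against 4.38% of all genes.
WARS1, chr14:100375383-100375412, minus strand: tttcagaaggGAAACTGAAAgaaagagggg
A match describes the letters in these windows and does not show that a factor was bound.

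With HGF, the summed levels of the 2 classes moved apart in wt MET cells, with GARS1 and KARS1 counted as cytosolic. The cytosolic sum was 5865 ± 17.02 CPM at 3 h, 5997 ± 55.6 at 6 h and 6585 ± 64.1 at 12 h, and both replicates at 12 h lay above both at 0 h. The mitochondrial sum was 557 ± 2.501, 528 ± 14.8 and 528 ± 2.04 CPM, so that all 6 libraries with HGF lay below both at 0 h. The ratio of the sums was 12.5 ± 0.0732 at 12 h. In MET∆14 cells the cytosolic sum was 3754 ± 11.3 CPM at 3 h and 4052 ± 98.6 at 6 h, above both replicates at 0 h, but at 12 h the replicates were at 3379 and 3609 CPM and enclosed the 0 h values. The mitochondrial sum in these cells stayed between 591 and 666 CPM, and the ratio was 6.24 ± 0.148 at 3 h, 6.10 ± 0.123 at 6 h and 5.47 ± 0.405 at 12 h. A sum is carried mostly by its most abundant genes, so the members are given by class below.

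**Figure D2:**
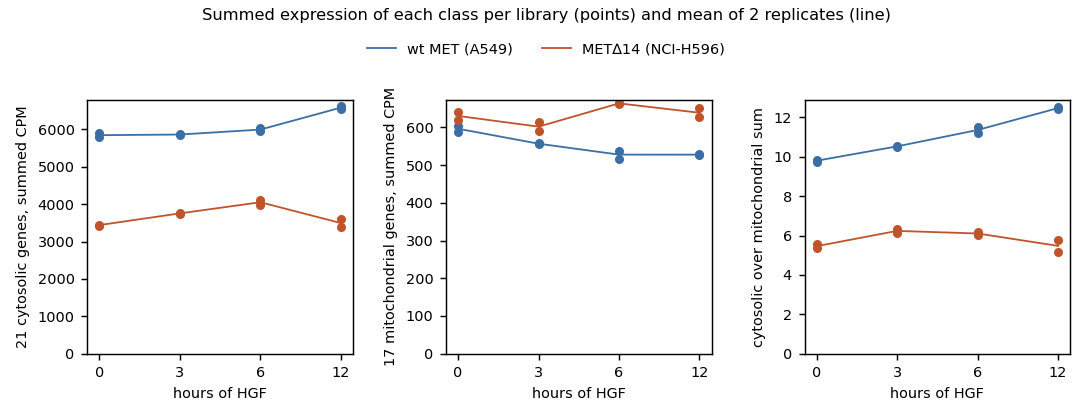
Summed CPM of the 21 cytosolic genes, of the 17 mitochondrial genes, and their ratio (y axes) against hours of HGF (x axes, not to scale), with a point per library and a line through the means of 2 replicates. In wt MET cells the ratio goes from 9.80 at 0 h to 12.5 at 12 h, and in MET∆14 cells it lies between 5.19 and 6.34 in all libraries.

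Calls over a time course come from 1 joint F test of the 3 times against 0 h, with its own adjustment over all genes, so that a gene may be called at a single time or on its mean response and not over the course. Higher or lower over a course is the sign of the mean response, which need not be called itself. In wt MET cells 15 of the 38 genes were called over the time course, 7 higher and 8 lower on average, or 39.5% of members beside 40.3% of all genes (19.2% higher and 21.1% lower). The share was that of the transcriptome at large. By time, 6 members were called at 3 h, 9 at 6 h and 16 at 12 h, beside 17.4%, 34.2% and 35.1% of all genes. Of the 16 at 12 h, LARS1, YARS1, CARS1 and CARS2 (adjusted p = 0.0156, 0.0398, 0.0437 and 0.0488) were higher and are not among the 15. Among the cytosolic genes 6 were called over the time course, 5 higher and 1 lower, and their median log2 change, averaged over the 3 times, was 0.08. Among the mitochondrial genes 9 were called, 2 higher and 7 lower, with a median of -0.14, beside -0.05 over all genes. At 12 h the medians were 0.16 for cytosolic and -0.22 for mitochondrial genes. The spread was estimated over both lines, and without replicate 1 of MET∆14 at 12 h the same test called 23 members over the time course in wt MET cells.

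Of the cytosolic genes in wt MET cells, TARS3, IARS1 and VARS1 rose most on average. TARS3 was at 13.2 and 11.7 CPM at 0 h, 18.2 and 19.4 at 3 h, 19.2 and 19.6 at 6 h and 16.5 and 17.1 at 12 h. All 6 libraries with HGF lay above both at 0 h, and the mean log2 change was 0.55 ± 0.10 (SE, adjusted p = 0.000429). IARS1, the isoleucyl enzyme of the multi-synthetase complex, was at 727 and 739 CPM at 0 h, 838 and 860.5 at 3 h, 933 and 924 at 6 h and 1019 and 999 at 12 h. Its values increased with each time, with log2 changes of 0.21 at 3 h, 0.34 at 6 h and 0.46 at 12 h and a mean of 0.34 ± 0.06 (SE, adjusted p = 0.000631). VARS1, the valyl enzyme, was at 74.9 and 76.2 CPM at 0 h, 102 and 95.0 at 3 h, 93.1 and 95.2 at 6 h and 78.7 and 76.4 at 12 h, high at 3 h and 6 h and back near its starting level at 12 h. Its mean log2 change was 0.25 ± 0.08 (SE, adjusted p = 0.0199), and without either wt MET replicate at 0 h this mean was no longer called (adjusted p = 0.124 and 0.060). GARS1 and TARS1 were called over the time course and, of the single times, at 12 h only, with log2 changes of 0.32 and 0.32.

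QARS1 was the only cytosolic gene called lower over the time course in wt MET cells. It stood at 61.4 and 57.4 CPM at 0 h, 51.1 and 51.6 at 3 h, 41.6 and 40.1 at 6 h and 28.6 and 30.3 at 12 h. The replicates of each time lay below those of the time before, and the log2 change at 12 h was -1.01 ± 0.08 (SE, adjusted p = 4.19e-07), the only one of the members in this line to reach 1 in size. Its mean was -0.59 ± 0.06 (SE, adjusted p = 4.9e-06).

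Of the mitochondrial genes in wt MET cells, WARS2, the tryptophanyl enzyme, rose. It was at 8.25 and 8.13 CPM at 0 h, 12.9 and 16.3 at 3 h, 14.6 and 14.9 at 6 h and 12.2 and 11.3 at 12 h, with the 6 HGF libraries all above both at 0 h. The mean log2 change was 0.73 ± 0.12 (SE, adjusted p = 0.000286). MARS2, the methionyl enzyme, was called over the time course (adjusted p = 0.0323) although its mean was 0.03 ± 0.10 (SE, adjusted p = 0.872), since it was at 28.9 and 31.5 CPM at 0 h, 30.8 and 32.2 at 3 h, 26.8 and 24.8 at 6 h and 38.8 and 32.8 at 12 h, low at 6 h and high at 12 h. No single time of MARS2 was called in this line.

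TARS2 and AARS2 were among the mitochondrial genes with the largest falls in wt MET cells. TARS2, the threonyl enzyme, was at 43.99 and 40.7 CPM at 0 h, 34.3 and 33.1 at 3 h, 29.1 and 27.5 at 6 h and 27.5 and 27.1 at 12 h, with a lower mean at each later time and a mean log2 change of -0.51 ± 0.08 (SE, adjusted p = 0.000105). AARS2, the alanyl enzyme, was at 13.3 and 13.6 CPM at 0 h, 10.7 and 11.1 at 3 h, 11.4 and 10.2 at 6 h and 7.05 and 9.69 at 12 h, lowest at 12 h, with a mean of -0.44 ± 0.14 (SE, adjusted p = 0.0255). This mean was no longer called without any 1 of 5 wt MET libraries (both at 0 h, replicate 1 at 3 h, replicate 2 at 6 h, replicate 1 at 12 h), with adjusted p from 0.0526 to 0.137. NARS2, SARS2 and IARS2 were also called lower, with means from -0.41 to -0.35. EARS2 was called over the time course, but its mean of -0.14 was not called by itself (adjusted p = 0.242). Of its single times only 12 h was called, at -0.51 ± 0.11 (SE, adjusted p = 0.00238). Of the annotated exon bases of SARS2, 48.2% are shared with a readthrough gene on its strand, and its counts are uncertain.

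By structural class, the falls in wt MET cells were spread over 5 class II and 3 class I genes, and no test compared the classes. All 8 mitochondrial class II genes (such as AARS2, FARS2, HARS2 and TARS2) had a negative mean log2 change, with a median of -0.41, and 5 were called lower over the time course while the other 3 were not called, beside 21.1% of all genes called lower. Of the 9 mitochondrial class I genes 2 were called higher and 2 lower, with a median of 0.03. Of the 10 cytosolic class I genes 2 were called higher and 1 lower, with a median of 0.09, and of the 11 cytosolic class II genes 3 were higher and the other 8 not called, with a median of 0.02.

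**Figure D3:**
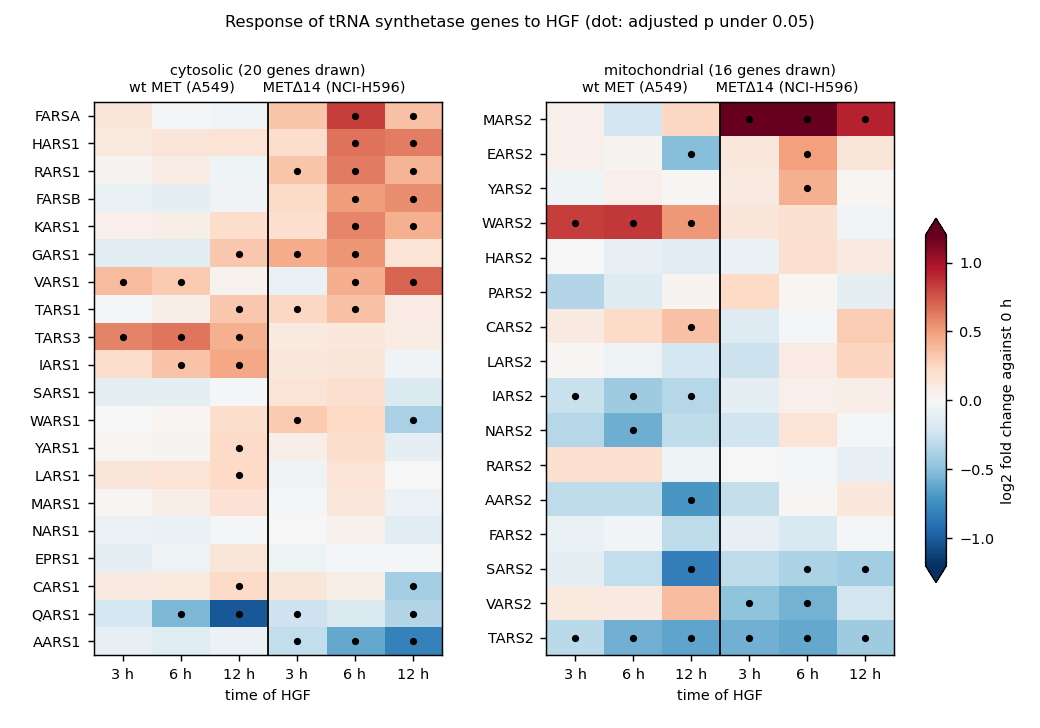
Log2 change against 0 h of the same line (colour, limits ±1.2) for 36 of the synthetase genes (rows, ordered by the mean in MET∆14 cells) and each time of HGF (columns); a dot marks an adjusted p under 0.05. In wt MET cells blue fills more of the mitochondrial than of the cytosolic rows, and in MET∆14 cells the red of the cytosolic rows is deepest at 6 h, with MARS2 (1.96 at 3 h) beyond the limits of the scale.

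In MET∆14 cells 23 of the 38 genes were called over the time course, 17 higher and 6 lower on average, or 60.5% of members beside 54.1% of all genes (25.6% higher and 28.5% lower). Of the 17, SARS1, WARS1, YARS1, CARS2, HARS2, LARS2 and YARS2 had means not called by themselves (adjusted p from 0.129 to 0.818). The same held for CARS1 of the 6 (adjusted p = 0.492). By time, 9 members were called at 3 h, 16 at 6 h and 14 at 12 h, beside 31.7%, 44.1% and 38.3%. Among the cytosolic genes 14 were called over the time course, 11 higher and 3 lower. Their median was 0.14 at 3 h, 0.20 at 6 h and -0.01 at 12 h, with a median of 0.07 for the mean over the times and -0.05 over all genes. Without the 12 h libraries of MET∆14, whose replicates differed most, the median was 0.18 and 24 members were called. Among the mitochondrial genes 9 were called, 6 higher and 3 lower, with a median of 0.01.

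FARSA, HARS1 and RARS1 had the largest mean rise of the cytosolic genes in MET∆14 cells. FARSA was at 64.5 and 68.0 CPM at 0 h, 80.9 and 86.3 at 3 h, 113 and 122 at 6 h and 71.3 and 98.9 at 12 h, highest at 6 h and with replicates far apart at 12 h. Its mean log2 change was 0.51 ± 0.11 (SE, adjusted p = 0.00127). FARSB, the other subunit, was at 31.2 and 31.0 CPM at 0 h, 33.5 and 39.1 at 3 h, 45.2 and 43.2 at 6 h and 40.8 and 51.5 at 12 h, with a mean of 0.43 ± 0.09 (SE, adjusted p = 0.0011), so both subunits of the enzyme rose in this line. HARS1, the histidyl enzyme, was at 85.9 and 86.6 CPM at 0 h, 94.9 and 104 at 3 h, 137 and 134 at 6 h and 132 and 132 at 12 h. HARS1 was high at 6 h and 12 h, and the mean was 0.49 ± 0.07 (SE, adjusted p = 2.5e-05). Of its exon bases 8.46% are shared with genes on the opposite strand, among them WDR55. The use of strand in counting is not given in the sources used here, so the value of HARS1 is uncertain. The share of its reads concerned was not measured. RARS1, the arginyl enzyme of the multi-synthetase complex, was at 107 and 109 CPM at 0 h, 135 and 137 at 3 h, 165 and 167 at 6 h and 136 and 150.5 at 12 h, above both 0 h values in all 6 HGF libraries, with a mean of 0.45 ± 0.07 (SE, adjusted p = 8.4e-05). KARS1, GARS1, VARS1 and TARS1 were called higher too, with means of 0.41, 0.38, 0.35 and 0.23. Without replicate 1 of MET∆14 at 0 h the mean of VARS1 was no longer called (adjusted p = 0.0602).

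AARS1, QARS1 and CARS1 were the cytosolic genes called with a negative mean in MET∆14 cells. AARS1, the alanyl enzyme, was at 283 and 262 CPM at 0 h, 216 and 227 at 3 h, 174 and 180.5 at 6 h and 164 and 145 at 12 h, with each time below the one before. Its log2 change was -0.82 ± 0.08 (SE, adjusted p = 4.12e-06) at 12 h and -0.58 ± 0.07 (SE, adjusted p = 5.84e-06) on average. QARS1 was at 123.4 and 122 CPM at 0 h, 101 and 106 at 3 h, 107 and 110.5 at 6 h and 95.9 and 96.1 at 12 h, below both 0 h values in all 6 HGF libraries, with a mean of -0.26 ± 0.06 (SE, adjusted p = 0.00192). CARS1, the cysteinyl enzyme, was at 105 and 101 CPM at 0 h, 116 and 112 at 3 h, 104 and 112 at 6 h and 74.1 and 81.8 at 12 h, near its starting level at 3 h and 6 h and below it at 12 h. Its log2 change at 12 h was -0.41 ± 0.09 (SE, adjusted p = 0.00195) and its mean -0.06 ± 0.07 (SE, adjusted p = 0.492). WARS1, the tryptophanyl enzyme, changed sign within the course, from 0.32 ± 0.11 (SE, adjusted p = 0.0381) at 3 h to -0.39 ± 0.11 (SE, adjusted p = 0.0115) at 12 h.

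MARS2 had the largest change of all members in either line. This gene (ENSG00000247626, chr2:197705369-197708395 on hg38, plus strand) has a single exon and shares no exon base with another annotated gene. In MET∆14 cells it was at 9.58 and 12.5 CPM at 0 h, 44.4 and 42.1 at 3 h, 40.6 and 40.7 at 6 h and 19.6 and 22.9 at 12 h. The means were 11.02 ± 2.04 CPM at 0 h and 43.2 ± 1.64 CPM at 3 h, a log2 change of 1.96 ± 0.13 (SE, adjusted p = 5.19e-08), followed by 1.87 ± 0.13 (SE, adjusted p = 4.06e-08) at 6 h and 0.93 ± 0.13 (SE, adjusted p = 8.65e-05) at 12 h. All 6 HGF libraries lay above both at 0 h, and at 3 h and 6 h the level exceeded the 28.9 and 31.5 CPM of wt MET cells at 0 h, from which it had started lower.

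The other mitochondrial rises in MET∆14 cells were smaller. EARS2, the glutamyl enzyme, was at 42.0 and 44.8 CPM at 0 h, 48.2 and 46.6 at 3 h, 61.6 and 60.5 at 6 h and 44.2 and 52.0 at 12 h, highest at 6 h, with a mean of 0.25 ± 0.09 (SE, adjusted p = 0.0259). This mean was no longer called without any 1 of 4 MET∆14 libraries (both at 0 h, replicate 1 at 3 h, replicate 1 at 6 h), with adjusted p from 0.0529 to 0.226. YARS2 was at 16.4 and 18.9 CPM at 0 h, 18.9 and 19.3 at 3 h, 22.9 and 24.5 at 6 h and 16.2 and 20.2 at 12 h, and only its 6 h value was called, at 0.42 ± 0.11 (SE, adjusted p = 0.00743). A noncoding gene on the opposite strand shares 18.1% of the exon bases of YARS2. CARS2, HARS2 and LARS2 were called over the time course with means between 0.03 and 0.07, and none of their single times was called.

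TARS2 and VARS2 were among the mitochondrial genes called lower in MET∆14 cells. TARS2 was at 41.9 and 40.7 CPM at 0 h, 25.6 and 29.7 at 3 h, 26.6 and 27.4 at 6 h and 29.5 and 32.3 at 12 h, below both 0 h values in every HGF library, with a mean log2 change of -0.54 ± 0.07 (SE, adjusted p = 3.46e-05). VARS2, the valyl enzyme, was at 29.98 and 29.0 CPM at 0 h, 20.4 and 21.6 at 3 h, 20.8 and 19.1 at 6 h and 29.9 and 20.02 at 12 h, lower at 3 h and 6 h and split between the replicates at 12 h, with a mean of -0.42 ± 0.12 (SE, adjusted p = 0.00867). A noncoding gene on the same strand shares 63.0% of its exon bases, so this value is uncertain. Without replicate 1 of MET∆14 at 0 h the mean of VARS2 was no longer called (adjusted p = 0.0691).

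**Figure D4:**
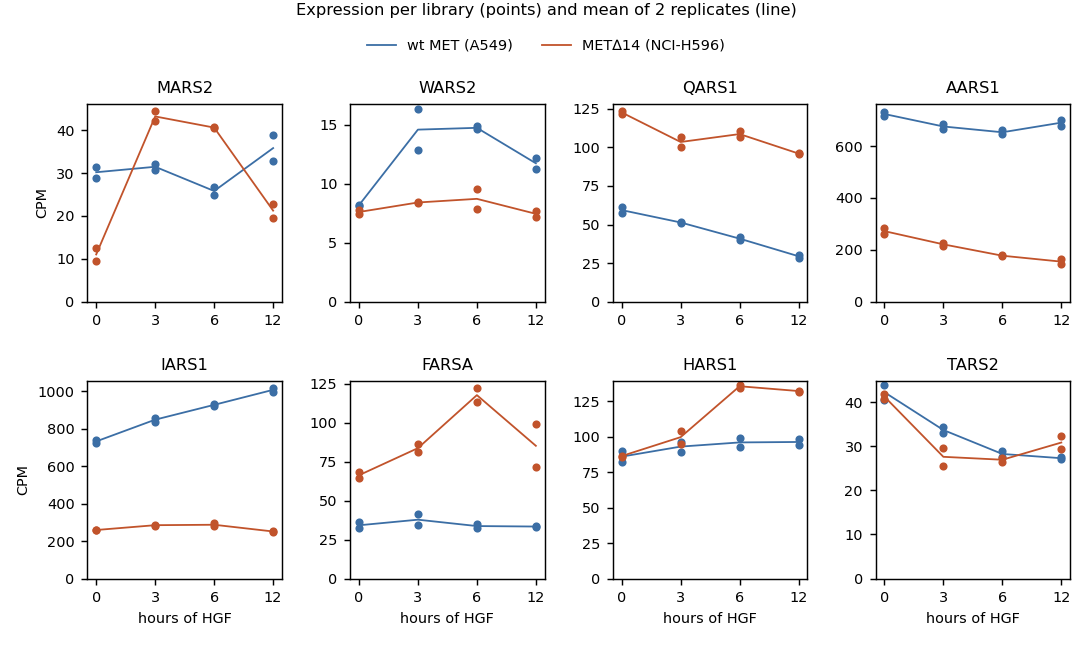
CPM (y axes, each from 0) of 8 synthetase genes against hours of HGF (x axes, not to scale) in wt MET and MET∆14 cells, with a point per library and a line through the means of 2 replicates. MARS2 rises from 11.02 to 43.2 CPM in MET∆14 cells, AARS1 falls there and IARS1 rises in wt MET cells, whereas QARS1 and TARS2 fall in both lines.

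The response itself differed between the lines for 22 of the 38 genes by the F test over the differences, 16 with a more positive and 6 with a more negative mean response in MET∆14 cells, or 57.9% of members beside 37.6% of all genes (20.3% more positive and 17.3% more negative). At 3 h 4 members differed, at 6 h 15 and at 12 h 15, beside 17.4%, 30.2% and 24.0%. Cytosolic genes accounted for 14 of the 22, 9 more positive and 5 more negative, and mitochondrial genes for 8, 7 more positive and 1 more negative. MARS2 was first among the positive differences, at 1.56 ± 0.15 (SE, adjusted p = 2.89e-06) on the log2 scale. FARSB differed by 0.51 ± 0.12 (SE, adjusted p = 0.0045), since its mean was -0.08 in wt MET cells, where it was at 131 and 141 CPM at 0 h, 127 and 130.3 at 3 h, 126 and 127 at 6 h and 128 and 137 at 12 h. FARSA differed by 0.48 ± 0.15 (SE, adjusted p = 0.0301), with a mean of 0.03 in wt MET cells, where it was at 36.0 and 32.2 CPM at 0 h, 41.3 and 34.2 at 3 h, 35.1 and 32.2 at 6 h and 33.6 and 33.0 at 12 h. The FARSA difference rests on a narrow margin, since the mean difference was no longer called without any 1 of 10 of the 16 libraries (adjusted p from 0.0541 to 0.146).

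WARS2, AARS1 and IARS1 had the most negative mean differences of the 22. VARS2 (-0.62 ± 0.18 (SE, adjusted p = 0.0174)) and TARS3 (-0.44 ± 0.14 (SE, adjusted p = 0.0266)) also had negative mean differences that were called, without being called by the F test over the differences (adjusted p = 0.0691 and 0.0792). Each of these 2 calls was lost without either of 2 libraries (replicate 2 of wt MET and replicate 1 of MET∆14 at 0 h), with adjusted p from 0.0556 to 0.0801 for VARS2 and from 0.0962 to 0.143 for TARS3. WARS2 was at 7.43 and 7.80 CPM at 0 h, 8.47 and 8.38 at 3 h, 9.58 and 7.88 at 6 h and 7.23 and 7.69 at 12 h in MET∆14 cells, a mean of 0.10 ± 0.12 (SE, adjusted p = 0.555), and differed from wt MET by -0.64 ± 0.17 (SE, adjusted p = 0.0108). Without replicate 2 of MET∆14 at 0 h this difference was not called (adjusted p = 0.0581). AARS1 was at 733 and 715 CPM at 0 h, 685 and 666 at 3 h, 661 and 646 at 6 h and 679 and 703 at 12 h in wt MET cells, a mean of -0.11 ± 0.07 (SE, adjusted p = 0.243), and differed by -0.47 ± 0.10 (SE, adjusted p = 0.00181). IARS1 was at 261 and 257 CPM at 0 h, 287 and 283 at 3 h, 279 and 296 at 6 h and 248 and 255 at 12 h in MET∆14 cells, a mean of 0.08 ± 0.06 (SE, adjusted p = 0.312), and differed by -0.26 ± 0.09 (SE, adjusted p = 0.0357). The last difference was not called without any 1 of 11 of the 16 libraries (adjusted p from 0.0510 to 0.116).

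Of the members, 8 were called over the time course in both lines. GARS1, QARS1, TARS1, VARS1, MARS2 and TARS2 were among those with means of the same sign in both lines. EARS2 had a mean of -0.14 in wt MET and 0.25 in MET∆14 cells. In wt MET cells the means of GARS1 (0.02), TARS1 (0.13), MARS2 (0.03) and EARS2 were not called by themselves (adjusted p = 0.834, 0.160, 0.872 and 0.242). GARS1 had log2 changes of -0.12 and -0.13 at 3 h and 6 h there, neither called, against 0.45 and 0.53 in MET∆14 cells. A further 7 members were called in wt MET alone, 15 in MET∆14 alone and 8 in neither line by this F test (among them EPRS1, MARS1, NARS1 and FARS2). LARS1, also among the 8, was called on its mean response in wt MET cells, at 0.19 ± 0.06 (SE, adjusted p = 0.0216). TARS2 fell in both lines, with a difference of the responses of -0.02 ± 0.11 (SE, adjusted p = 0.925). For VARS1 the means were alike, at 0.25 and 0.35, but the F test over the differences was called (adjusted p = 7.83e-05), since it was high at 3 h in wt MET (0.38) and at 12 h in MET∆14 cells (0.70). The model with line and time as additive terms fits a single time course to both lines and does not test whether they share it. In this model 7 members were called, 2 higher and 5 lower, beside 30.6% of all genes (13.4% higher and 17.2% lower). AARS1, HARS1, QARS1 and WARS2 were among the 7, although their responses differed between the lines by the F test over the differences.

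For 15 amino acids both a cytosolic and a mitochondrial gene were measured, with FARSA standing for the cytosolic phenylalanyl enzyme. At 0 h the cytosolic gene was above its partner per length of the longest transcript in 14 of the 15 pairs in wt MET and 13 in MET∆14 cells, with a median log2 ratio of 3.23 and 2.75. The order of some pairs turned with the length. HARS1 lay below HARS2 in both lines with the longest transcripts (log2 ratio -1.14 ± 0.02 in wt MET and -0.26 ± 0.03 in MET∆14 cells) and above it with the canonical ones used for the levels above (0.34 ± 0.02 and 1.23 ± 0.03), which put the cytosolic gene above in 15 of 15 pairs in wt MET and 14 in MET∆14 cells. The 2 genes are annotated head to head on chromosome 5 with 108 shared exon bases. IARS1 lay above IARS2 in wt MET (0.94 ± 0.04) and below it in MET∆14 cells (-1.12 ± 0.06), where it lay below with each of 3 lengths, whereas merged exons put it below in wt MET cells too (-0.21 ± 0.04). The phenylalanyl pair depends on the subunit taken and on the length. In MET∆14 cells FARSB, unlike FARSA, lay below FARS2 per kilobase of the canonical transcript (4.60 ± 0.0239 against 10.1 ± 0.931 CPM at 0 h). With HGF, the mean ratio was above that at 0 h in 12 of 15 pairs in wt MET cells, with a median move of 0.22, and in 10 of 15 pairs in MET∆14 cells, with a median of 0.07. Some of these moves were within the spread of the replicates, and all 6 HGF libraries lay above both at 0 h in 7 pairs in wt MET and 6 in MET∆14 cells, and below both in 1 pair in each line.

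The threonyl pair moved toward the cytosolic gene in both lines. The log2 ratio of TARS1 to TARS2 was 3.65 ± 0.19 at 0 h and 4.60 ± 0.03 at 12 h in wt MET cells. In MET∆14 cells it was 3.68 ± 0.01 at 0 h, 4.52 ± 0.18 at 3 h and 4.197 ± 0.01 at 12 h. The tryptophanyl pair moved toward the mitochondrial gene in wt MET cells, from 4.22 ± 0.11 at 0 h to 3.40 ± 0.05 at 6 h. The methionyl pair did so in MET∆14 cells, from 3.44 ± 0.31 at 0 h to 1.45 ± 0.07 at 3 h, while MARS1 itself had a mean log2 change of 0.01 ± 0.07 (SE, adjusted p = 0.905). The alanyl pair went in opposite directions, with the ratio of AARS1 to AARS2 at 5.41 ± 0.05 and 6.04 ± 0.28 at 0 h and 12 h in wt MET cells and at 2.75 ± 0.03 and 1.85 ± 0.24 in MET∆14 cells.

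**Figure D5:**
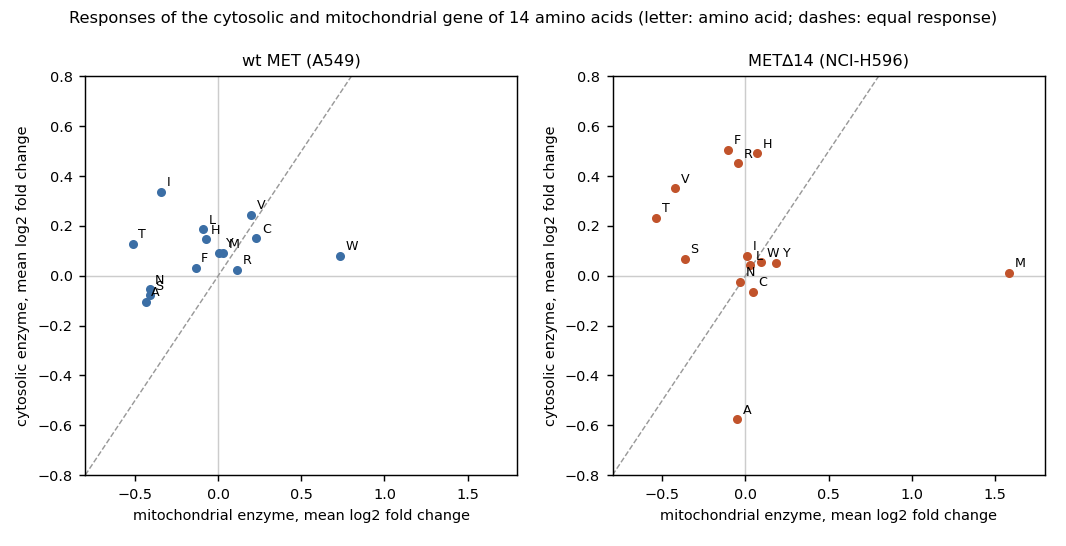
Mean log2 change over 3 h, 6 h and 12 h of HGF of the cytosolic (y axis) and mitochondrial (x axis) gene for 14 amino acids, marked by their letters, in wt MET and MET∆14 cells; dashes mark equal responses. Above the dashes lie 11 of these pairs in wt MET and 9 in MET∆14 cells, with tryptophan (W) far to the right in the first and methionine (M) in the second.

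The other genes around the synthetases were read from lists written by hand. Of the 8 enzymes of the multi-synthetase complex (such as EPRS1, IARS1, KARS1 and QARS1), 2 were called over the time course in wt MET cells, 1 higher and 1 lower, and 3 in MET∆14 cells, 2 higher and 1 lower, or 25.0% and 37.5% beside 40.3% and 54.1% of all genes. Of the 13 cytosolic genes outside the complex 4 were called higher and the other 9 not called in wt MET, and 9 higher and 2 lower in MET∆14 cells, or 30.8% and 84.6%. The 3 scaffold genes were all called higher over the time course in MET∆14 cells, whereas in wt MET cells their adjusted p over the times was 0.0727 (AIMP1), 0.0788 (AIMP2) and 0.269 (EEF1E1). The level of AIMP1 was 56.4 ± 0.749 CPM at 0 h and 81.6 ± 2.25 CPM at 6 h, with a mean log2 change of 0.39 ± 0.06 (SE, adjusted p = 0.000175). AIMP2 and EEF1E1 had means of 0.39 ± 0.09 (SE, adjusted p = 0.00294) and 0.50 ± 0.08 (SE, adjusted p = 0.000208). The response of all 3 scaffold genes differed between the lines, by 0.31, 0.66 and 0.43.

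Of 26 other genes of the ATF4 amino acid response, 16 (61.5%) were called lower and the other 10 not called at 12 h in MET∆14 cells, beside 20.1% of all genes called lower, with a median log2 change of -0.73 beside -0.02 over all genes. Their values at that time ran from -2.08 for the stress protein NUPR1 to 0.11 for the transcription factor ATF5, and 7 were called higher and 10 lower at 6 h, beside 21.6% and 22.5% of all genes. In wt MET cells the list was read over the time course instead, where 6 were called higher and 9 lower, beside 19.2% and 21.1% of all genes. Its median mean response there was -0.04. These measures differ from the single times given for MET∆14 cells, so the lines are not compared on this list. The MET∆14 replicates at 12 h were also those that stood furthest apart. The 7 cytosolic synthetases with the element shown above had log2 changes at 12 h in MET∆14 cells of -0.82 (AARS1), -0.41 (CARS1), -0.14 (NARS1), -0.07 (MARS1), -0.04 (IARS1), 0.10 (TARS1) and 0.17 (GARS1), and of these AARS1 and CARS1 were called. MARS1 shares 5.05% of its exon bases with DDIT3, a gene of this list, on the opposite strand.

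Among 18 further genes of mitochondrial translation, such as elongation factors and tRNA-modifying enzymes, 4 were called higher and 7 lower over the time course in wt MET cells, 61.1% beside 40.3% of all genes, with a median of -0.13. For MET∆14 the calls were 6 higher and 5 lower, 61.1% beside 54.1%, with a median of 0.05. At 12 h in MET∆14 cells they ran from -0.99 for GATB, a subunit of the amidotransferase that makes mitochondrial glutaminyl-tRNA, to 1.04 for PUS1, a pseudouridine synthase. Of 12 genes of cytosolic elongation and tRNA handling, 2 were called higher and 1 lower over the time course in wt MET and 2 higher and 2 lower in MET∆14 cells, or 25.0% and 33.3% beside the same shares. Of 8 tested genes of the interferon gamma response, listed because WARS1 belongs to it, 7 were called lower and the other 1 was not called at 12 h in MET∆14 cells, beside 20.1% of all genes, with a median of -1.07, at the time when WARS1 was at -0.39. This list is given for that line and time only, where the replicates stood furthest apart. WARS1 itself was higher in MET∆14 cells at 3 h (0.32).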

How the data were processed

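PolyA RNA from A549 (wt MET) and NCI-H596 (MET∆14) cells was sequenced by the authors at 0 h, 3 h, 6 h and 12 h of HGF, with 2 biological replicates each. Serum was withheld for 12 h per the labels and for longer per the methods, and the HGF dose for these libraries is not given in the sources used here. The methods name another lung line with wt MET in their other experiments, and the columns of the table spell the A549 line differently, so the remaining part of each column name was matched to the titles. The paper also describes transcriptomes of cells with amplified wt MET, which are not among the 16 libraries used here. Reads were trimmed and mapped with STAR to hg38, and the submitters' processing notes list STAR 2.5.0 and RSEM 1.3.2. The deposited values are counts of reads per gene, whole and not normalized. The use of strand and the annotation version are not given in the sources used here.

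The counts were fitted with edgeR 4.0.16 in R 4.3.3 (filterByExpr, minimum count 10 and minimum total 15, TMM, robust quasi-likelihood fit with 1 coefficient per condition over 16 libraries, Benjamini-Hochberg adjustment, threshold 0.05). The additive model of line and time follows the formula of the authors, who used DESeq2. DESeq2 1.42.0, other scaling and filters, a replicate block, each line alone and leaving out each replicate were the alternatives. Of the 42351 genes 19306 had no count. Log2 CPM in the ratios of partners used a prior count of 2. GENCODE release 44 gave lengths and overlaps on the same build. Statistics were tested on simulated data. P-values rest on the spread between replicates, estimated over both lines, and each MET status is 1 line. Members named with full values were, per line and class, the 3 largest rises and falls, averaged over the times, among members called over the time course (an F test of the 3 times against 0 h), and the 3 largest differences in each direction. Of the members, 2 entered the tests, counts, sums and medians but their own results are not reported here. Members and lists were chosen with earlier results of these data known.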

Additional observations from a re-analysis of the deposited data

Results flagged for a closer look

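For 22 synthetase genes the response to HGF differed between the lines by edgeR's F test over the differences at 3 h, 6 h and 12 h (adjusted p under 0.05). The values given are the mean log2 response in MET∆14 minus that in wt MET cells. It was 1.56 for MARS2, 0.51 for FARSB, 0.48 for FARSA, 0.43 for RARS1, 0.39 for EARS2, 0.39 for AARS2, 0.38 for NARS2, 0.36 for GARS1, 0.35 for IARS2, 0.35 for HARS1 and 0.33 for QARS1. Smaller positive values were found for HARS2 (0.15), SARS1 (0.15), LARS2 (0.12), VARS1 (0.11) and TARS1 (0.10), and small negative ones for WARS1 (-0.027) and YARS1 (-0.040), whose time courses differed more than their means. Negative values were found for CARS1 (-0.22), IARS1 (-0.26), AARS1 (-0.47) and WARS2 (-0.64). The mean difference of EARS2 was not called by edgeR without any 1 of 10 libraries (adjusted p from 0.0502 to 0.246). That of HARS1 was not called without any 1 of 3 libraries (adjusted p from 0.0560 to 0.0830). Because each MET status is 1 line, whether these differences follow MET or another property of the lines cannot be told apart.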

How the results depend on the processing

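Counts of called members moved most when a log2 fold change of at least 1 in size was also asked for: 0, 0 and 1 at 3 h, 6 h and 12 h and 1 over the time course in wt MET, 1, 1 and 0 and 1 over the time course in MET∆14, 1 for the difference, 13 between the lines at 0 h and 0 in the additive model. In the additive model DESeq2 called 12 and edgeR without the filter on low counts 11, against 7. With each line fitted alone 4 members were called at 3 h in MET∆14. Taken at single times, the cytosolic median was 0.0105, 0.0349 and 0.164 in wt MET and 0.137, 0.200 and -0.0062 in MET∆14 at 3 h, 6 h and 12 h, and the mitochondrial median was -0.0518 at 3 h and -0.216 at 12 h in wt MET and -0.120 at 3 h in MET∆14. Without the 12 h libraries of MET∆14, an alternative chosen after seeing the data, the cytosolic median there was 0.183. The median log2 ratio of the partners at 0 h was 2.78 (wt MET) and 2.34 (MET∆14) with lengths of merged exons, and 3.11 in wt MET with the canonical transcript, also chosen after seeing the data. The other settings kept these results within 1.5 times the count or 1 SD of the value. For named members these settings lost 4 calls and gained 5. The mean difference of TARS3 was not called by DESeq2 (adjusted p = 0.0721). By edgeR without the filter on low counts, those of TARS3, IARS1 and QARS1 were not called (adjusted p = 0.0947, 0.115 and 0.0550). The gains were means of HARS1 and CARS1 in wt MET cells and the difference of CARS1.

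Leaving out each replicate in turn gave 2 to 9 members called at 3 h, 8 to 22 at 12 h and 12 to 23 over the time course in wt MET, and 3 to 15 at 3 h in MET∆14, and a mitochondrial median of -0.158 to -0.0753 in wt MET. The lowest counts in wt MET were reached without replicate 1 at 0 h or at 3 h (2 called at 3 h) or replicate 1 at 12 h (8 and 12), and in MET∆14 without replicate 1 at 0 h. The median was lowest without replicate 2 and highest without replicate 1 of wt MET at 0 h. Counts were also lower at 3 h in wt MET without replicate 2 of that time (3), at 12 h without replicate 2 (10), and at 3 h in MET∆14 without replicate 1 (4) or 2 (5) of that time or replicate 2 at 0 h (5). Without either MET∆14 replicate at 12 h 15 were called at 3 h, and without replicate 1 the 23 over the time course in wt MET. Some mean responses near 0, none of them called when all libraries were used, changed sign. In wt MET these were MARS2 (-0.033 to 0.110, also -0.00381), YARS2 (-0.0753 to 0.111, also -0.00326), FARSA (-0.0298 to 0.115, also -0.00294), RARS1 (-0.0559 to 0.126) and EARS2 (-0.265 to 0.0155). In MET∆14 it was AARS2 (-0.146 to 0.0225, also 0.0214), and for the difference TARS2 (-0.0807 to 0.0122, also 0.000498) and VARS1 (-0.00858 to 0.198). The cause of these moves was not tested.

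No pairing by replicate number was seen, since the deviations of same-numbered libraries correlated between -0.159 and 0.111 over 28 pairs of conditions. These correlations cannot show how the replicates were laid out. With the replicate number as a block, 15 members were called over the time course in wt MET, 22 in MET∆14 and 21 for the difference, and the block moved no count by over 1.5 times. PARS2, with 32 to 98 counts per library, had an SE of 0.16 and 0.16 on its mean response in wt MET and MET∆14 cells, against 0.07 and 0.07 for the abundant EPRS1.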

Other observations

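Before HGF, FARSA lay above FARSB in MET∆14 cells, whereas the replicates of these 2 subunit genes of the cytosolic phenylalanyl enzyme overlapped in wt MET cells. Per kilobase of the canonical transcript, FARSA was at 18.8 ± 1.48 CPM in wt MET and 36.6 ± 1.38 CPM in MET∆14 cells, and FARSB at 20.2 ± 1.04 and 4.60 ± 0.0239 CPM (mean ± SD, n = 2). The annotated FARSB transcript is long (6761 bases against 1811 for FARSA), so the order of the 2 genes within a line depends on that length, whereas each gene's difference between the lines does not.

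EPRS1, the joint glutamyl and prolyl enzyme of the cytosol, was an abundant member with no call over the times in either line. It was at 450.2 and 419 CPM at 0 h, 387 and 414 at 3 h, 413 and 419 at 6 h and 466 and 498 at 12 h in wt MET cells and at 283 and 290.3 CPM at 0 h, 273 and 276 at 3 h, 271 and 297 at 6 h and 303 and 264 at 12 h in MET∆14 cells. Its adjusted p over the times by edgeR was 0.087 in wt MET and 0.924 in MET∆14 cells, which does not show that it did not change.

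PUS1, which modifies tRNA in nucleus and mitochondrion, rose in MET∆14 cells beside MARS2, with a log2 change of 1.30 ± 0.12 (SE, adjusted p = 7.76e-07) at 6 h by edgeR. It was singled out after its values were seen, as the highest of its list.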
